A study of Mus musculus with 16 samples.

Results

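The flexor tendons of the mouse forepaw were compared with the Achilles, patellar and supraspinatus tendons, and the genes that set them apart are described here. RNA from C57BL/6J mice was sequenced in 16 libraries, 4 per tendon, which the labels number as mice 1 to 4. The groups are called Flexor, Achilles, Patellar and Supraspinatus; the labels give the strain and the tendon, and no age, sex or treatment. Flexor and Supraspinatus are tendons of the forelimb, whereas Achilles and Patellar come from the hindlimb. A gene was taken as a member when its lowest CPM (counts scaled by TMM-adjusted library totals) in the 4 Flexor libraries was above the highest of the 12 other libraries, or its highest was below their lowest.

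Tendons join muscle to bone through bundles of collagen made by tendon fibroblasts. Those of the digits run inside a sheath lined by synovial-like cells, and they belong to the most distal segment of the limb. Fibroblasts of adult limbs keep part of the embryonic code of Hox and T-box transcription factors, in which the most posterior Hoxa and Hoxd genes mark hand and foot. A dissected tendon also carries pieces of muscle, nerve, fat and vessel, so that in bulk RNA fewer cells of a type and less RNA per cell cannot be told apart.

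Of 23754 genes with enough counts to test, 861 (3.62%) lay above and 924 (3.89%) lay below all 12 other libraries, 1785 in all (7.51%). A further 69 higher and 3 lower genes met the rule but did not pass the filter on low counts. The same rule applied to each other tendon in turn gave 396 higher and 155 lower genes for Achilles, 1671 and 2919 for Patellar, and 2071 and 1085 for Supraspinatus. Total counts were 97242489 to 106573353 per Flexor library, 84414005 to 97180849 in Achilles, 34559686 to 63235636 in Patellar and 86898889 to 107805065 in Supraspinatus. Genes that resemble ribosomal RNA took 13.2 to 42% of the Patellar counts and 1.86 to 4.91% elsewhere. Patellar libraries resembled each other least, with Pearson correlations across genes from 0.95 to 0.977, against 0.991 to 0.996 among Flexor libraries. Patellar thus stands apart in depth and in this share. Without its libraries 1142 of 22985 tested genes (4.97%) lay above and 1664 (7.24%) below the other 8, and edgeR called 14.9% higher and 18.1% lower. List counts without Patellar are given where they differ most.

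The edgeR contrast of Flexor with the mean of the other 3 tendons called 3998 genes (16.8%) higher and 3459 (14.6%) lower at an adjusted p of 0.05. Of the members, 828 of 861 higher and 923 of 924 lower genes passed it, and 372 and 668 passed against each tendon separately. The test and the rule read the same libraries, so these p-values describe the members and are no second line of evidence for them. They measure the spread between libraries, and the sources used here do not say whether a mouse number stands for 1 animal across tendons.

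Most members cleared the border by little. The median ratio of the nearest Flexor library to the nearest other library was 1.11 for higher and 1.19 for lower members. It exceeded 2 for 111 higher and 39 lower genes, and 10 for 16 and 5. Just inside the border lay the DNA clamp gene Pcna, whose lowest Flexor value was 21.2 CPM against 21.2 in the highest other library, with Pacsin2 and Abl1. Qars, Tor3a and Dhx15 lay just outside it. On the lower side Ccdc85b, Gga1 and Cat were just inside and Efhd2, Pptc7 and Rtl8b just outside.

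Achilles was the tendon closest in level for 476 (55.3%) of the higher and 657 (71.1%) of the lower members, Supraspinatus for 320 (37.2%) and 211 (22.8%), and Patellar for 65 (7.55%) and 56 (6.06%). Members were more often protein-coding (82.6% and 89.9%) than the tested genes (66.6%). Their median level was 17.2 and 18.1 CPM, against 3.79 over all tested genes. In order along the chromosomes, 109 of 711 protein-coding higher members (15.3%) had a neighbour that was also a higher member, against 8.76% of all tested protein-coding genes. Of the lower members 100 of 831 had such a neighbour, against 1589 of 15825 genes in all.

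Cochlin, a secreted matrix protein known from the inner ear, is the product of Coch, the member with the largest difference to its nearest tendon among those with a mean of at least 3 CPM (ENSMUSG00000020953, chromosome 12, 51593341 to 51605771). Its Flexor libraries 1 to 4 read 3767, 3639, 4540.0 and 6416 CPM. The other 12 lay between 5.76 and 131 CPM with a median of 20.9, the highest of them an Achilles library. The difference was 7.44 ± 0.372 (log2, SE; edgeR adjusted p = 3.82e-09). Against Achilles it was 5.92 ± 0.564, against Supraspinatus 7.37 ± 0.603 and against Patellar 9.02 ± 0.648. Per kilobase of exon Coch ranked 25 among the tested genes in Flexor, 1526 in Achilles, 4440 in Supraspinatus and 8466 in Patellar.

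Gsn, which codes for the actin-severing protein gelsolin, was the most abundant member per kilobase, ranking 3 in Flexor and 12, 15 and 18 in Achilles, Patellar and Supraspinatus. It read 27025, 33508, 27396 and 40767 CPM in Flexor and 4527 to 13162 CPM elsewhere, with a median of 9023. Here too no library overlapped, and the difference was 1.83 ± 0.224 (edgeR adjusted p = 1.83e-05), from 1.79 against Achilles to 1.88 against Supraspinatus. Fhl1, a LIM protein of muscle, followed at rank 18. Gsn and Fhl1 were chosen after their values were seen.

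**Figure D1:**
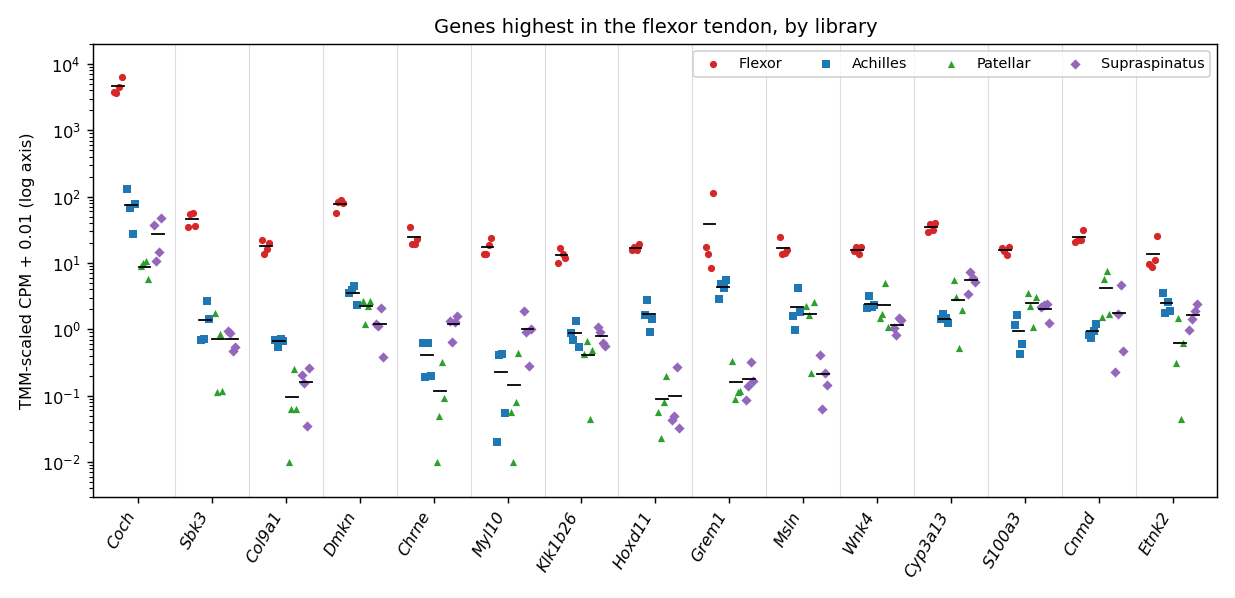
TMM-scaled CPM plus 0.01 (log axis) of the 15 named higher members of at least 3 CPM on average with the largest difference to their nearest tendon; each point is 1 library, black bars are means of 4, and colours and shapes mark the tendons. Coch lies between 3639 and 6416 CPM in Flexor and at most at 131 CPM elsewhere, and Grem1 has 1 Flexor library at 114 CPM.

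The 15 leading higher genes were Coch, Sbk3, Col9a1, Dmkn, Chrne, Myl10, Klk1b26, Hoxd11, Grem1, Msln, Wnk4, Cyp3a13, S100a3, Cnmd and Etnk2, ordered by the log2 difference to the nearest tendon. Several belong to groups taken up below. Of the rest, Msln codes for mesothelin, a surface protein of mesothelial cells, and read 24.8, 13.8, 14.0 and 15.7 CPM in Flexor against at most 4.26 elsewhere. Cyp3a13, a cytochrome P450, read 29.7, 39.1, 31.5 and 40.2 against at most 7.32 CPM. Wnk4, a kinase that controls ion transporters, read 13.4 to 17.6 against at most 4.999 CPM. Klk1b26 belongs to a family of near-identical kallikrein genes, so reads may be split among copies. Its Flexor values were 9.97 to 16.8 CPM and the others at most 1.34. Pla2g2a, a secreted phospholipase listed as a pseudogene in the annotation of this strain and for that reason outside the naming rule, read 37.9 to 60.1 against at most 5.58 CPM.

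Some posterior Hox genes set the forepaw tendon apart. Of 10 tested posterior Hoxa and Hoxd genes, 5 lay above all other libraries and 0 below, against 3.62% and 3.89% of all tested genes. The median difference was 2.64 against 0.06 over all genes. These 5 were Hoxd10, Hoxd11, Hoxd12, Hoxd13 and Hoxa13. In edgeR 6 passed as higher and 2 as lower. The summed list overlapped, at 0.0106 to 0.0135% of the Flexor counts and 0.00939 to 0.0131% in Patellar. It took 0.00656 to 0.0114% in Achilles and 0.00543 to 0.0066% in Supraspinatus. Hoxd13, at 0 in another library, could not have lain below. Hoxd13, the gene of the digits, read 7.29, 9.29, 8.04 and 10.1 CPM in Flexor. The others lay between 0 and 0.232 CPM with a median of 0.0310, and the difference was 7.30 ± 0.533 (edgeR adjusted p = 1.89e-07). Hoxa13, the other gene of this paralogous group, read 5.83, 5.94, 6.73 and 7.16 CPM in Flexor. Here Achilles came next, at 0.930 to 1.05 CPM in its 4 libraries, above Patellar and Supraspinatus, which stayed at or below 0.314 CPM.

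Hoxd11 repeated this order, with 15.6 to 19.4 CPM in Flexor, 0.899 to 2.75 in Achilles and at most 0.256 in the other 8 libraries. Hoxd10 read 8.06 to 10.6 CPM in Flexor, 1.86 to 2.97 in Achilles, 0.780 to 1.85 in Patellar and 0.262 to 0.782 in Supraspinatus. For Hoxd12, 1172 reads fell in the 4 Flexor libraries and 7 in the other 12. Hoxd12 passed the filter on low counts through Flexor alone and could not have lain below. The neighbouring homeobox gene Evx2 had 428 reads in Flexor and 0 in the other 12, which places its Flexor mean of 0.994 CPM at least 61.7-fold above the level that 3 counts over the shallowest tendon would give. Further along the same cluster the levels met: Hoxd9 read 6.09 to 7.85 CPM in Flexor within the 4.86 to 15.2 CPM of the others, and Hoxd8 read 3.92 to 5.83 against 5.79 to 15.4 CPM. Hoxa11, the gene of the middle limb segment, read 5.55 to 6.73 CPM in Flexor and 5.12 to 13.2 in Achilles, and Hoxa10 overlapped all other tendons. Lnpk, Evx2, Hoxd13, Hoxd12, Hoxd11 and Hoxd10 lie next to each other on chromosome 2 (74520291 to 74695105, GRCm38) and form the longest run of adjacent protein-coding members. Lnpk, which codes for an endoplasmic reticulum protein, read 54.5 to 83.4 CPM in Flexor against 13.6 to 51.3.

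Hoxc genes went the other way. Of 8 tested, 0 lay above and 4 below all other libraries: Hoxc4, Hoxc5, Hoxc6 and Hoxc8, with a median difference of -6.31 over the list. Hoxc6, a patterning gene of trunk and proximal limb, read 0.0580, 0.0700, 0.0446 and 0.0353 CPM in Flexor against 1.92 to 19.0 CPM elsewhere (median 5.05), a difference of -6.76 ± 0.236 (edgeR adjusted p = 8.55e-11). The annotated span of Hoxc5 covers Hoxc6, so their counts may share reads. Hoxc8 separated the tendons in steps: at most 0.0353 CPM in Flexor, 0.0757 to 0.244 in Supraspinatus, 2.26 to 2.80 in Achilles and 27.8 to 39.3 in Patellar. Hoxc9 and Hoxc10 were at most at 0.0535 CPM in Flexor and overlapped with Supraspinatus, while both hindlimb tendons were at 4.59 CPM or more. Of 16 tested anterior Hoxa, Hoxb and Hoxd genes, 3 lay below all others (Hoxb2, Hoxb4 and Hoxb6, each at or under 0.176 CPM in Flexor) and 0 above, and edgeR called 12 lower and 0 higher.

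Among the factors of limb type, Tbx5 and Pitx1 met the rule in opposite directions. Tbx5, the T-box gene of the forelimb, read 45.4, 53.8, 47.3 and 56.7 CPM in Flexor. Supraspinatus, also of the forelimb, came next at 18.7 to 23.9 CPM, then Patellar at 6.52 to 8.73 and Achilles at 0.139 to 0.460. The Flexor level exceeded that of Supraspinatus by 1.32 ± 0.218 (edgeR adjusted p = 0.000258). Pitx1, a homeobox gene of the hindlimb, read 0.164, 0.210, 0.178 and 0.353 CPM in Flexor and 9.76 to 77.8 CPM elsewhere, with a median of 17.3. The Supraspinatus libraries, at 9.76 to 14.1 CPM, did not share the low level of the other forelimb tendon: Flexor was lower than Supraspinatus by -5.75 ± 0.349 (edgeR adjusted p = 2.45e-08). Tbx4, the hindlimb T-box gene, read 19.0 to 23.4 CPM in Flexor and overlapped with Patellar, at 9.20 to 26.5 CPM. Its mean CPM per kilobase of exon was 6.39 in Flexor, 5.60 in Patellar, 4.00 in Achilles and 1.25 in Supraspinatus. The edgeR contrast called Tbx4 higher in this forelimb tendon, a call lost without the Supraspinatus libraries (0.42, edgeR adjusted p = 0.193).

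Most factors of the proximal limb were lower in Flexor when counted gene by gene. Of 13 tested, 5 lay below (Shox2, Meis1, Meis2, Irx3 and Pbx2) and 1 above all other libraries (Pknox2), and edgeR called 9 lower and 3 higher. Against Achilles alone 6 were lower and 3 higher, with a median of -0.21. The summed list was not low, at 0.0386 to 0.045% of the Flexor counts. It took 0.0297 to 0.0303% in Achilles, 0.0177 to 0.0229% in Patellar and 0.0427 to 0.0495% in Supraspinatus. Shox2, which patterns the upper limb segment, read 0.774, 0.540, 0.803 and 0.511 CPM in Flexor and at least 5.27 CPM in the other 12, whose median was 11.1. Its difference was -4.21 ± 0.194 (edgeR adjusted p = 1.65e-09). Meis2, a homeobox gene of the proximal limb bud, read 0.600, 0.240, 0.660 and 0.282 CPM against 2.19 to 7.62. Meis1 followed with 2.19 to 3.08 against 4.69 to 11.2 CPM. Pknox2, of the same homeobox class, read 55.4 to 64.7 CPM in Flexor against 10.4 to 50.5.

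Of 16 distal and digit factors, 12 passed the filter on low counts. Of these 12, 5 lay above all others and 0 below (Hoxd13, Hoxa13, Evx2, Sall1 and Lhx2), and edgeR called 10 higher and 1 lower. Hoxd13 and Hoxa13 were counted among the posterior Hox genes as well. Evx2 and Sall1, at 0 in whole tendons, could not have lain below. Sall1, a zinc finger gene of digit development, read 1.48 to 4.03 CPM in Flexor and at most 0.387 elsewhere, with 0 in all 4 Patellar libraries. Lhx2, a LIM homeobox gene of limb outgrowth, read 1.46 to 2.65 against at most 1.08 CPM. Among 18 tested genes of the other limb axes, 5 lay above, among them Zic1, Zic4, Hand2 and Gli1, and 1 below (En1). Hand2, a factor of the posterior limb bud, read 4.49, 5.82, 5.22 and 8.21 CPM in Flexor, 1.39 to 3.38 in Achilles and at most 0.366 in the other 8. An antisense gene overlaps Hand2, and the strand used in counting is not known. The zinc finger gene Zic1 read 1.68 to 2.46 against at most 0.432 CPM. En1, a gene of the ventral limb bud, read 0.0981 to 0.193 CPM in Flexor against 0.243 to 4.79, with the highest values in Supraspinatus.

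**Figure D2:**
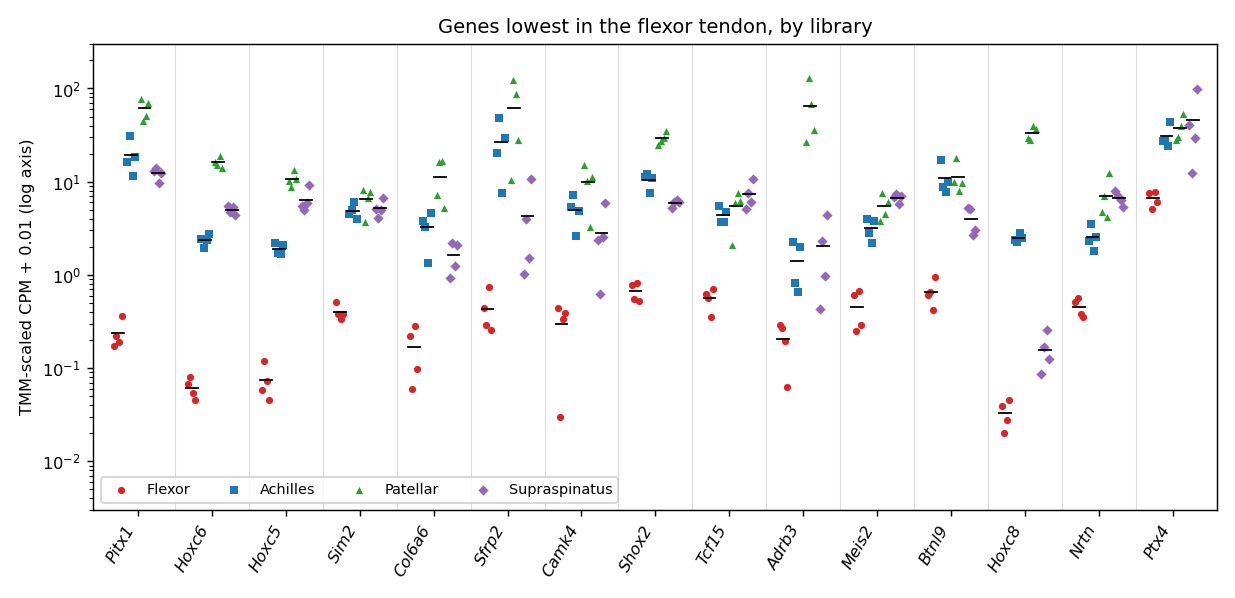
TMM-scaled CPM plus 0.01 (log axis) of the 15 named lower members of at least 3 CPM on average with the largest difference to their nearest tendon; each point is 1 library and black bars are means of 4. Flexor lies below 1 CPM for all but Ptx4, at 5.13 to 7.78 CPM, and Hoxc8 shows Supraspinatus at 0.0757 to 0.244 CPM.

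The 15 leading lower genes were Pitx1, Hoxc6, Hoxc5, Sim2, Col6a6, Sfrp2, Camk4, Shox2, Tcf15, Adrb3, Meis2, Btnl9, Hoxc8, Nrtn and Ptx4. Sim2, a bHLH-PAS transcription factor, read 0.330 to 0.503 CPM in Flexor against 3.65 to 8.09. Tcf15, a bHLH factor of somites, read 0.348 to 0.688 against 2.07 to 10.6 CPM. Nrtn, the neurotrophic factor neurturin, read 0.344 to 0.550 against 1.79 to 12.3 CPM. Adrb3, the adrenergic receptor of fat cells, read 0.0529 to 0.280 CPM in Flexor, and among the others it reached from 0.422 in Supraspinatus to 130.3 in Patellar.

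Of 23 tested tendon cell genes, 3 lay below all other libraries (Scx, Cilp2 and Ptx4) and 1 above (Pdgfra), with a median difference of -0.01. In edgeR 6 were higher and 8 lower. Scx, the bHLH factor of tendon progenitors, read 6.09, 4.69, 3.49 and 5.33 CPM in Flexor. Achilles lay at 11.9 to 23.3 CPM, Supraspinatus at 35.4 to 93.5 and Patellar at 86.3 to 128, and the difference to the 3 together was -3.28 ± 0.280 (edgeR adjusted p = 7.04e-07). Cilp2, a matrix protein of cartilage and tendon, read 163, 127, 86.5 and 107 CPM against 190.3 to 1250.3. Pdgfra, a receptor of fibroblasts, read 276, 301, 327 and 189 CPM against 59.3 to 143.

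The other genes by which tendon is recognised were present and overlapped. Tnmd, a membrane protein of tendon cells, read 84.9 to 121 CPM in Flexor against 76.8 to 398, a difference of -1.01 ± 0.270 (edgeR adjusted p = 0.00967) that missed the threshold without the Patellar libraries (-0.73, adjusted p = 0.0636). Thbs4, a matrix glycoprotein of tendon, read 635 to 1178 CPM against 766 to 4038 (-1.05 ± 0.359, edgeR adjusted p = 0.0354), a call lost without any 1 of Flexor 1, 2 or 3, Patellar 4 or Supraspinatus 3 (adjusted p up to 0.124). Col1a1, the main chain of tendon collagen, read 3416 to 5456 CPM in Flexor, within the 1852 to 20382 CPM of the others (-0.74 ± 0.366, edgeR adjusted p = 0.14). The transcription factor Mkx read 34.7 to 45.4 CPM and the proteoglycan Fmod 3057 to 4147 CPM, and neither passed the test (edgeR adjusted p = 0.252 and 0.821). Without Supraspinatus, Mkx (-0.69, edgeR adjusted p = 0.0226) and Col1a1 (-1.06, edgeR adjusted p = 0.0157) passed as lower.

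Matrix genes gave few members. Of 43 tested collagens, 1 lay above (Col9a1) and 1 below (Col6a6), shares of the list close to the background, and edgeR called 11 higher and 6 lower. Without Patellar 4 collagens lay above and 2 below, against 4.97% and 7.24% of all tested genes. Col9a1, a chain of the fibril-associated collagen IX of cartilage, read 22.5, 13.6, 16.01 and 19.97 CPM in Flexor and at most 0.709 CPM elsewhere. The difference was 6.51 ± 0.356 (edgeR adjusted p = 8.37e-09). Col6a6, a chain of microfibrillar collagen VI, read 0.05003 to 0.277 CPM against 0.920 to 16.7. Of 49 genes of matrix turnover, Timp2, an inhibitor of metalloproteinases (195 to 226 against 230.3 to 1727 CPM), and Bmp1, the procollagen C-proteinase (24.6 to 32.3 against 33.8 to 271 CPM), lay below, and 0 lay above. The share of turnover genes below is close to the 3.89% of all tested genes. Fbln7 was the 1 member among 19 elastic fibre genes, at 12.6 to 17.9 against 30.1 to 107.6 CPM. Without Patellar 5 of the 49 turnover genes lay below, against 7.24% of all tested genes.

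Of 20 tested genes of sheath, synovial lining and hyaluronan, 2 lay above all others, Coch and Has2, and 0 below, with a median of -0.01. Has2, a hyaluronan synthase, read 17.1, 18.2, 22.4 and 19.1 CPM against 3.11 to 12.05. Prg4, the lubricin of synovial surfaces, read 1752 to 2383 CPM in Flexor and 1999 to 3946 in Achilles (0.49 ± 0.184 against the 3 tendons together, edgeR adjusted p = 0.0519). Prg4 passed without Achilles (0.88, edgeR adjusted p = 0.00163), and also in DESeq2 (adjusted p = 0.0419) and with voom (adjusted p = 0.0273).

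Of 21 tested cartilage genes, 4 lay above (Col9a1, Snorc, Cnmd and Sox5) and 0 below, with a median difference of 0.68, and edgeR called 10 higher and 4 lower. Cnmd, the chondromodulin related to Tnmd, read 21.1, 22.2, 22.2 and 31.9 CPM against 0.216 to 7.64. Snorc, a membrane proteoglycan of chondrocytes, read 1.55, 1.54, 1.64 and 7.94 CPM against at most 0.273. Sox5, a chondrocyte transcription factor, read 34.5, 34.9, 36.2 and 61.9 against at most 32.6 CPM. Flexor library 4 was the highest for Snorc, Cnmd and Sox5. The general cartilage genes overlapped: Col2a1 read 9.97 to 21.1 CPM in Flexor against 0.917 to 28.1, and Acan 11.7 to 34.4 against 3.10 to 114. Cartilage genes took 0.358 to 0.776% of the Flexor counts and 0.378 to 1.06% of the Achilles counts. Without Flexor library 4 the differences were 3.52 for Cnmd, 3.99 for Snorc and 0.77 for Sox5 (edgeR adjusted p = 0.000279, 2.06e-06 and 0.00684), and Col2a1 no longer passed (1.26, adjusted p = 0.111). Col2a1 was also lost without library 2 (adjusted p = 0.0652), from 1.503 ± 0.491 with all libraries (edgeR adjusted p = 0.0283).

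Some secreted regulators of Wnt and BMP signalling were members. Over all tested genes 3.62% lay above and 3.89% below. Of 36 tested Wnt ligands and modulators, 4 lay above (Frzb, Sfrp1, Wif1 and Wnt16) and 2 below (Sfrp2 and Apcdd1), and edgeR called 10 higher and 5 lower. Sfrp2, a secreted frizzled-related protein, read 0.435, 0.280, 0.740 and 0.247 CPM in Flexor against 1.02 to 123 (median 15.4), a difference of -5.48 ± 0.891 (edgeR adjusted p = 0.000229). Its relative Sfrp1 ran opposite, at 30.9, 31.4, 39.8 and 38.4 CPM against 3.35 to 26.6. Frzb, of the same family, read 97.7, 126, 96.5 and 278 CPM in Flexor, 53.2 to 73.6 in Achilles and at most 7.85 in the other 8. Against Achilles alone Frzb did not pass (1.24 ± 0.441, edgeR adjusted p = 0.0678). Wif1, which binds Wnt ligands, read 123 to 215 against 18.4 to 118 CPM, and its call was lost without Patellar (1.15, edgeR adjusted p = 0.0515). Wnt16 read at most 0.638 CPM, and its call was lost without Flexor library 1 (edgeR adjusted p = 0.06) or 4 (adjusted p = 0.0528).

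Of 30 tested BMP, GDF and activin ligands and antagonists, 2 lay above, Grem1 and Bmp5, and 0 below. The median difference was 0.06, as over all genes, and edgeR called 6 higher and 7 lower. Grem1, a BMP antagonist of the distal limb bud, read 17.2, 13.8, 8.44 and 114 CPM in Flexor, 2.84 to 5.58 in Achilles and at most 0.322 in the other 8. Even the lowest Flexor library was above all others. The difference was 6.31 ± 0.521 (edgeR adjusted p = 5.75e-07), and 4.74 without library 4 (adjusted p = 3.78e-07). Bmp5, a BMP ligand of cartilage and limb, read 18.3 to 23.0 CPM against at most 15.4, and it did not pass against Supraspinatus alone (0.94 ± 0.524, edgeR adjusted p = 0.204).

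Among 25 FGF ligands, receptors and targets, 3 lay above: the ligand Fgf7 (38.7 to 45.4 against 2.88 to 36.1 CPM), the transcription factor Etv5 (27.4 to 38.8 against 12.6 to 22.1 CPM) and the phosphatase Dusp6 (56.2 to 71.3 against 18.6 to 54.6 CPM). None lay below, while edgeR called 7 higher and 7 lower. Of 14 IGF axis genes, the binding protein Igfbp2 lay above (2.74 to 11.99 against at most 2.02 CPM) and Igfbp7 below (90.8 to 113 against 128 to 1106 CPM), and without Patellar 4 lay below. Of 43 axon guidance genes, the receptor Robo1 lay above (37.4 to 47.2 against 4.06 to 15.3 CPM), and Sema3f and Plxnd1 below. For the guidance list the member shares were near the background.

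The acetylcholine receptor of the neuromuscular junction was higher in Flexor. The adult receptor of the muscle end plate is built from the alpha, beta, delta and epsilon subunits coded by Chrna1, Chrnb1, Chrnd and Chrne, and Chrng codes for the fetal gamma subunit. Their promoters are known to be driven by myogenic factors at E-boxes and, for the adult junction, by ETS factors at the N-box. The RefSeq promoter table (GRCm38.p6) held 4 of these 5 genes, and the 250 bases before their start sites are printed because 3 of them are members and 1, Chrnb1, is not. The RefSeq start of Chrng lies 1154 bases inside the gene as GENCODE annotates it, so its window may not be the promoter in use. Capitals mark each E-box (CANNTG) and each N-box (CCGGAA or its complement), searched on both strands. Sequences run 5′ to 3′ on the strand of the gene.
Chrne promoter, chr11:70619195-70619444, minus strand: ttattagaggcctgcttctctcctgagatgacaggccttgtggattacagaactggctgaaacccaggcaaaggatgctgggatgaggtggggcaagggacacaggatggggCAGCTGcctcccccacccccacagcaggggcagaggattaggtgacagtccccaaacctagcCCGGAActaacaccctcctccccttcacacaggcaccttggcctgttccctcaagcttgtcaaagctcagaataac
Chrna1 promoter, chr2:73580339-73580588, minus strand: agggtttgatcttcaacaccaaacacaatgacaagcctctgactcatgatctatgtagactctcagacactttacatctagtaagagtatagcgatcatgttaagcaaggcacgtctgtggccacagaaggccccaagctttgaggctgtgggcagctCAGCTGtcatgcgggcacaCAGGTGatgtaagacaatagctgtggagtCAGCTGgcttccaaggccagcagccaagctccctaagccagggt
Chrng promoter, chr1:87205561-87205810, plus strand: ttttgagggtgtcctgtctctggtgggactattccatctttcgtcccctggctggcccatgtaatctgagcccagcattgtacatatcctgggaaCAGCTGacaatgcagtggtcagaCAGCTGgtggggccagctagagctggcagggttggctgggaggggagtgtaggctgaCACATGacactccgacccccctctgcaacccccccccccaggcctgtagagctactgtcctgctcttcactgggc
Chrnb1 promoter, chr11:69795938-69796187, minus strand: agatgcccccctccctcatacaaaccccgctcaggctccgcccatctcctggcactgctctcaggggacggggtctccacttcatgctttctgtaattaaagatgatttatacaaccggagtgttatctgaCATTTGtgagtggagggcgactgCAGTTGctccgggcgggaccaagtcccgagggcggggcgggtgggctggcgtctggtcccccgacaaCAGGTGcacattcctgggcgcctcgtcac
Chrna1, Chrng and Chrnb1 hold 3 E-boxes each, and 12.2% of 32536 RefSeq promoters of this length hold 3 or more, and Chrne holds 1. The form CAGCTG, present in 13.1% of all promoters, occurs in the 3 members and not in the Chrnb1 window. The N-box, present in 12.1%, occurs in Chrne. At least 1 E-box of any form is present in 66.2% of promoters, and these matches describe letters only.

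Of 12 tested junction genes, 6 lay above all other libraries and 0 below (Chrna1, Chrnd, Chrne, Chrng, Ache and Ufsp1), with a median difference of 1.93, and edgeR called 10 higher. Chrne read 35.2, 19.6, 19.3 and 23.2 CPM in Flexor. All others lay at or below 1.59 CPM (median 0.461), the highest in Supraspinatus, and the difference was 6.12 ± 0.388 (edgeR adjusted p = 5.72e-08). Chrne overlaps another annotated gene on the opposite strand, so part of its reads may belong to that gene. Chrna1 read 69.5, 57.8, 50.1 and 55.4 CPM in Flexor, 9.40 to 27.2 in Achilles, 1.87 to 5.12 in Supraspinatus and 0.143 to 2.50 in Patellar. Chrnd read 12.5, 6.69, 5.34 and 5.55 against at most 1.70 CPM. The fetal Chrng stayed low everywhere, at 0.358 to 0.480 CPM in Flexor and at most 0.280 elsewhere. Chrnb1 read 44.9 to 58.1 CPM in Flexor and up to 48.3 in Supraspinatus, and so overlapped, although its contrast passed (1.81 ± 0.137, edgeR adjusted p = 2.53e-07).

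Ache, the acetylcholinesterase that ends transmission at the junction, read 76.4, 53.8, 57.8 and 56.6 CPM in Flexor. Supraspinatus came next at 13.1 to 51.5 CPM, then Achilles at 2.85 to 5.33 and Patellar at 0.417 to 1.63. Ufsp1, its neighbour on chromosome 5, read 16.7 to 22.1 against at most 9.90 CPM. The organisers of the end plate overlapped. Musk, the kinase that clusters the receptor, read 21.7 to 74.3 CPM in Flexor and 23.1 to 53.2 in Supraspinatus, and Rapsn, its scaffold, 18.7 to 27.4 and 37.3 to 48.7 CPM (0.74 ± 0.314 against the 3 tendons together, edgeR adjusted p = 0.0852). Dok7 passed with Patellar in the contrast (1.32, adjusted p = 2.82e-05) and not without it (0.11, adjusted p = 0.686).

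**Figure D3:**
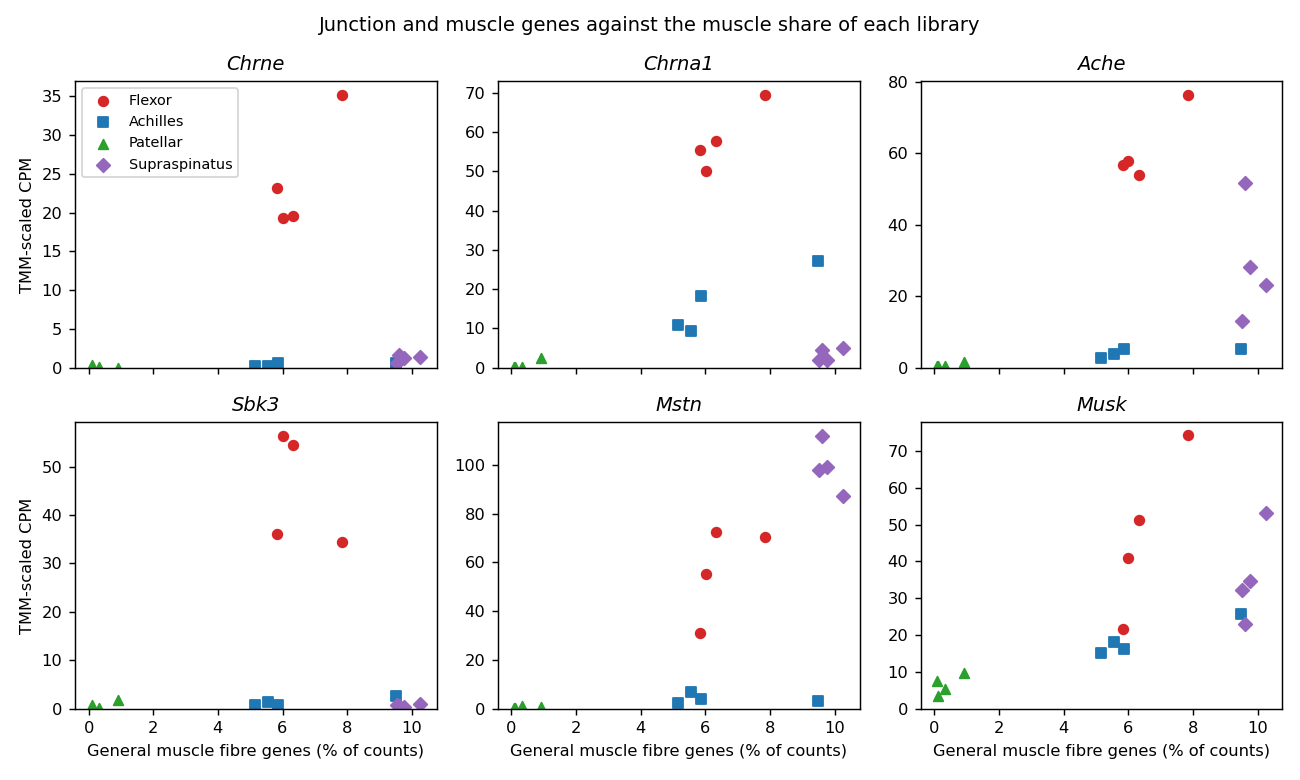
TMM-scaled CPM of 6 genes (vertical axes from 0) against the share of counts taken by 27 general muscle fibre genes (horizontal axis, percent); each point is 1 library. Supraspinatus has the largest muscle share, 9.53 to 10.3%, with at most 1.59 CPM of Chrne, while Flexor has 5.82 to 7.85% with at least 19.3 CPM; Mstn and Musk overlap between these tendons or are higher in Supraspinatus.

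General muscle fibre genes took 5.82 to 7.85% of the Flexor counts, 5.14 to 9.5% in Achilles, 0.0922 to 0.92% in Patellar and 9.53 to 10.3% in Supraspinatus. None of these 27 genes, and none of 16 fast fibre genes, was a member. The edgeR contrast called 13 of the 27 and 9 of the 16 higher and 0 lower, with medians of 1.15 and 1.55. Without Patellar 4 general fibre genes were higher and 7 lower, and 3 fast fibre genes higher and 2 lower, with medians of -0.33 and -0.01. Junction genes took 0.0325 to 0.0443% of the Flexor counts, above the 0.0146 to 0.0204% of Supraspinatus. With the mean level of the general fibre genes as a covariate, the difference was 6.00 for Chrne, 2.53 for Chrna1, 2.67 for Chrnd and 3.003 for Ache (edgeR adjusted p = 9.63e-05, 0.000564, 0.0109 and 0.000124), and Chrng no longer passed (1.76, adjusted p = 0.245). Without Patellar the values were 5.10, 2.94, 4.33 and 2.42. The part of muscle content in the junction genes was not tested beyond these fits.

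Other muscle genes among the members were also high in Flexor. Sbk3, a kinase of heart and skeletal muscle, read 34.4, 54.4, 56.4 and 36.1 CPM against at most 2.64, a difference of 5.71 ± 0.449 (edgeR adjusted p = 3.61e-07). Its neighbour Sbk2 read 452 to 547 CPM in Flexor, 109 to 189 in Supraspinatus and at most 27.6 in the rest. Myl10, a myosin light chain, read 13.5, 13.7, 18.4 and 23.8 against at most 1.90 CPM. Myh13, the myosin of extraocular muscle, read 13.8 to 23.8 against at most 4.36 CPM, and Mybph, a myosin-binding protein, 57.8 to 199 against at most 37.5. Sbk2, Myh13 and Mybph were chosen after their values were seen.

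Of 13 slow fibre genes, Myh6 and Csrp3 lay above: Csrp3, a LIM protein of the Z-disc, read 687 to 1354 CPM against 2.08 to 441, and Myh6, a cardiac myosin, 14.3 to 34.0 against at most 11.02. In edgeR 4 of the 13 were higher and 2 lower, with a median of 0.22. Against Achilles alone 1 was higher and 8 lower (median -2.52). Without Patellar 3 were higher and 5 lower (median -0.54). The list took 0.362 to 0.649% of the Flexor counts and 1.25 to 2.31% of the Achilles counts. Myh7, the slow skeletal myosin, read 7.48 to 23.9 CPM in Flexor and 6.08 to 8.93 in Supraspinatus, and reached 2401 to 5219.8 CPM in Achilles. Myh4, the fastest myosin, read 5635 to 12167 CPM in Flexor, between Supraspinatus (24577 to 29396) and the other 2 tendons (29.7 to 840.5). Its difference of 3.13 ± 0.447 rests on averaging over tendons and was -0.0739 with the 12 other libraries as 1 group (edgeR adjusted p = 0.986).

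Among 14 myogenic and satellite cell genes, Mymk, Mymx and Chrng lay above and 0 below, with a median of 2.26, or 2.03 with a gene at 0 in 1 tendon set to its bound. In edgeR 11 were higher and 0 lower. Without Patellar the median was 0.55, with 6 higher and 2 lower, and 3 still lay above. Mymk, which codes for the fusion protein myomaker, read 1.42 to 4.57 CPM in Flexor against at most 1.31, and Mymx, which codes for myomixer, 0.454 to 1.10 against at most 0.300. Pax7, the satellite cell factor, was at 0.420 to 0.899 CPM and overlapped, as did Myog and Myod1. Without Patellar the Flexor difference of Pax7 was -0.80 (edgeR adjusted p = 0.0182) and that of Myod1 -0.55 (adjusted p = 0.0618).

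Neighbouring genes of the skin barrier were high in Flexor, while the skin keratins Krt5 and Krt14 stayed near 0. Of 16 tested epidermis genes, edgeR called 5 higher and 2 lower. Among them Dmkn, Krtdap and Sbsn lay above all other libraries and 0 lay below. Dmkn, Krtdap and Sbsn lie side by side on chromosome 7 (30751471 to 30791097, GRCm38) and code for secreted proteins of the upper epidermis. Dmkn, or dermokine, read 56.4, 82.3, 89.9 and 79.7 CPM in Flexor against 0.376 to 4.42 (median 2.27), a difference of 5.20 ± 0.268 (edgeR adjusted p = 3.89e-09). Krtdap read 30.7, 29.3, 50.4 and 20.3 CPM in Flexor, 8.14 to 9.93 in Achilles and at most 2.80 in the other 8. Sbsn, or suprabasin, read 81.2, 132, 89.7 and 111 CPM against 5.80 to 29.2.

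The epidermal keratins Krt14 and Krt5 were near 0 in the same libraries. Krt1 and Krt10, which were also chosen as epidermis markers, are not reported here. Krt14 read 0.123 to 0.312 CPM in Flexor and reached 1.18 CPM in 1 Patellar library (2.68 ± 0.899, edgeR adjusted p = 0.0321, and no longer below 0.05 without any 1 of Achilles 2 or 4, Flexor 2 or 3, or Supraspinatus 1, 2 or 3, with adjusted p up to 0.102), and Krt5 read 0 to 0.406 CPM in Flexor and up to 1.94 elsewhere. The late epidermal genes Lor and Ivl were at most at 0.106 and 0.0290 CPM in Flexor. The whole epidermis list took 0.0226 to 0.0286% of the Flexor counts, 0.00543 to 0.00844% in Achilles, 0.00533 to 0.0107% in Patellar and 0.00394 to 0.00518% in Supraspinatus, with Dmkn, Krtdap and Sbsn counted in it, and its part in their values was not tested. Krt19, a keratin of simple epithelia and sweat glands, read 5.51 to 11.4 CPM in Flexor and at most 4.20 elsewhere.

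Fat genes were lower. Of 21 tested adipocyte genes, 3 lay below all other libraries (Cebpa, Lpl and Aqp7) and 0 above, with a median difference of -2.26, and edgeR called 20 lower. Without Patellar 4 lay below and 15 were called lower and 1 higher, with a median of -1.44. Lpl, the lipase of fat and muscle capillaries, read 176 to 266 CPM in Flexor against 309.7 to 2479.6. Cebpa, a transcription factor of adipocytes, read 1.73 to 2.002 CPM in Flexor and 3.49 to 87.1 elsewhere, and Aqp7, their glycerol channel, 4.50 to 9.28 against 12.04 to 101. The other fat genes overlapped with another tendon, and Adipoq, the adipocyte hormone, read 37.2 to 57.2 CPM there and 9.84 to 103 in Supraspinatus. The list took 0.415 to 0.648% of the Flexor, 0.192 to 0.381% of the Supraspinatus, 1.47 to 3.39% of the Achilles and 1.39 to 4.4% of the Patellar counts, and its part in the lower genes was not tested. Against Supraspinatus alone 3 fat genes were higher and 5 lower.

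Schwann cell genes gave no member although edgeR called 15 of 17 higher. The list took 0.215 to 0.598% of the Flexor counts and 0.112 to 0.656% of the Achilles counts, and against Achilles 0 of its 17 genes passed in either direction. The part of nerve content in other results was not tested. Of 12 pericyte and smooth muscle genes, Pdgfrb lay above (195 to 215 against 97.3 to 162 CPM), and of 20 endothelial genes, Sox17, a factor of arterial endothelium, lay below (2.14 to 4.11 against 4.16 to 19.7 CPM). Of the 20 endothelial genes edgeR called 0 higher and 5 lower, and against Achilles alone 0 higher and 8 lower. Without Patellar 6 endothelial genes lay below, and edgeR called 2 higher and 9 lower. The endothelial gene Kdr missed the threshold in the main fit and passed as lower in DESeq2 (-0.58, adjusted p = 0.0278). Pecam1, an endothelial adhesion protein, overlapped (0.50 ± 0.261, edgeR adjusted p = 0.165).

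**Figure D4:**
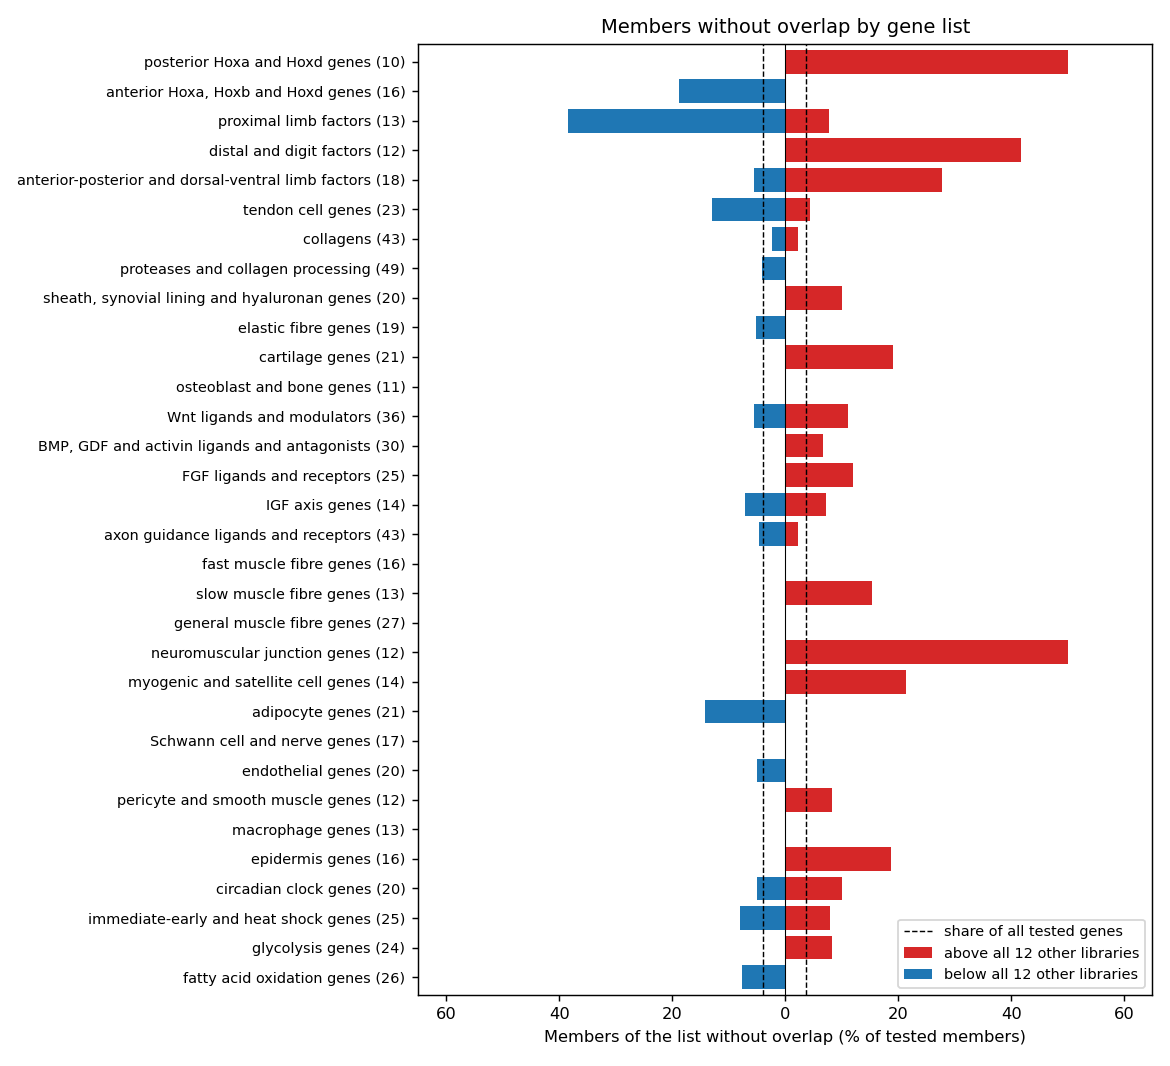
Share of each list's tested genes (horizontal axis, percent; tested number in brackets) that lay above (red, right) or below (blue, left) all 12 other libraries in all 4 Flexor libraries; dashed lines mark the shares of all 23754 tested genes, 3.62% above and 3.89% below. Posterior Hox and neuromuscular junction genes have the longest bars above, with 5 of 10 and 6 of 12, and proximal limb factors the longest below, with 5 of 13; only lists with 10 or more tested genes are drawn.

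The 3 pairwise contrasts share the Flexor libraries and are given side by side. Flexor was higher in 1543 genes (6.5%) and lower in 2310 (9.72%) than Achilles, higher in 6215 (26.2%) and lower in 5737 (24.2%) than Patellar, and higher in 2949 (12.4%) and lower in 3492 (14.7%) than Supraspinatus. Of the 10 posterior Hox genes, 5 were higher and 1 lower against Achilles, 6 and 3 against Patellar, and 6 and 2 against Supraspinatus. Of the junction genes, 8, 11 and 7 of 12 were higher and 0 lower in each. General muscle fibre genes gave 3 of 27 higher against Achilles, 27 against Patellar and 1 against Supraspinatus, where 3 were lower. Without the Patellar libraries the members among posterior Hox (5), junction (6) and proximal limb genes (5 lower) numbered the same.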

How the data were processed

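The deposited table holds whole-number read counts per gene, made by the authors with HISAT2 against mm10 and analysed by them with edgeR, per the submitters' processing notes; the notes state neither strand setting nor annotation. Gene positions were read from GENCODE M21 and promoters from RefSeq.

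Counts were scaled by TMM in edgeR 4.0.16 (R 4.3.3) after a filter on low counts by tendon, which kept 23754 of 41204 genes. A gene read in Flexor alone could pass this filter, and a gene at 0 in another library could not lie below. The quasi-likelihood fit used the 16 libraries together with a separate mean for each tendon, p-values were adjusted by Benjamini-Hochberg over all tested genes, and CPM values use the TMM-scaled totals. Alternatives were DESeq2 1.42.0, limma 3.58.1 and the settings in the closing section. With 84414005 or more counts in each library outside Patellar, 1 read is about 0.01 CPM, and the shallower Patellar libraries set the precision of low values.

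Named genes are the 15 members per direction with the largest log2 difference to the nearest tendon, a mean of at least 3 CPM and an edgeR call (unnamed genes, pseudogenes and haemoglobins left out), up to 5 members of each of 38 lists (737 of 738 list genes were found), a fixed panel, and 3 genes on either side of each border. Genes outside this rule, among them Gsn, Fhl1, Sbk2, Myh13, Mybph, Lnpk, Evx2 and Pla2g2a, were chosen after their values were seen. The members, lists and panel were chosen with earlier results of these data known. Equal mouse numbers did not deviate together, so samples were not paired. Some genes of these lists are counted but not reported by name here.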

Additional observations from a re-analysis of the deposited data

Results flagged for a closer look

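In 240 sets of 4 libraries of 1 tendon, for the leading and panel genes, 21 had a library far from the other 3 by Dixon's test; chance alone flags about 12. In Flexor, library 4 stood apart for Grem1 (114 CPM, next 17.2), Cnmd (31.9, next 22.2) and Etnk2 (25.6, next 10.9), and library 1 for the myosins Myh2 (5858, next 1492) and Myh7 (23.9, next 8.21).

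Outside Flexor the values of the distant library were as follows. In Patellar, Myl10 was at 0.431 CPM in library 4, Wnk4 at 4.999 and Hoxd12 at 0.0347 in library 3, and Grem1 at 0.322, Prg4 at 2062 and Myh7 at 213 in library 1. In Supraspinatus, Hoxd11 was at 0.256 CPM in library 3, Hoxa13 at 0.314 in library 2, Hoxd12 at 0.0325 and Myh2 at 2006 in library 1, and Col2a1 at 5.20, Krt14 at 0.0114 and, as the lowest value, Myh4 at 24577 in library 4. In Achilles, Hoxd12 was at 0.0274 CPM in library 4, Myh1 at 3553 in library 3 and Kdr at 139 in library 1. The Hoxd12 and Krt14 values rest on single reads or a few reads.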

How the results depend on the processing

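The number of genes called between Flexor and the other 3 tendons was 4774 with a mean of at least 5 CPM required, 3537 with an absolute log2 difference of at least 1, and 1890 (658 higher, 1232 lower) with the 12 other libraries as 1 group, where the spread between tendons enters the error. Higher members numbered 463 at 5 CPM. Lower members numbered 1664 without Patellar. In alternatives chosen after seeing the data, members numbered 1548 higher and 1495 lower without Achilles, and 2081 and 1881 without Supraspinatus; fewer libraries leave fewer values to clear. Leaving out 1 library gave 5663 (Flexor 2) to 9013 (Patellar 3) calls, 799 (Patellar 2) to 1204 (Flexor 1) higher members and 904 (Patellar 4) to 1172 (Flexor 4) lower members.

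Other scalings moved the median difference by -0.025 and -0.028. Of 4606 values for 166 named genes under 28 settings, 4465 counted as unchanged, 92 lost and 44 gained the call. A change of sign in a gene called neither in the main fit nor in the alternative counted as unchanged. Among genes called in either fit, direction reversed 5 times: Myh4 (-0.0739) and Myod1 (-0.42) with the 12 other libraries as 1 group, Myod1 (-0.55) and Pax7 (-0.80) without Patellar, and Myh3 (-1.51) with the muscle covariate. Tbx5, Ache, Krtdap and Hand2 were among those that lost the call with the others as 1 group.

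With the mouse number as a replicate block, 7081 genes were called (3820 higher, 3261 lower). Over 24 pairs of equal number the mean correlation of deviations was 0.0323 (-0.218 to 0.411), against -0.0115 for different numbers. In 4 of 12 Flexor comparisons the best match was the own number. Such correlations cannot settle whether equal numbers are the same animal. Depth limits genes under about 0.1 CPM, and most of all in Patellar.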

Other observations

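The lists of the daily clock, of early stress responses and of metabolism gave few members each. For scale, 3.62% of all tested genes lay above and 3.89% below, and edgeR called 16.8% higher and 14.6% lower. Of 20 tested clock genes, Cry2 and Per1, which repress the clock, lay above the 12 other libraries and Dbp, an output factor, below. Cry2 read 308, 356, 292 and 295 CPM in Flexor against 113 to 237 (0.92 ± 0.105, edgeR adjusted p = 8.67e-06), and Per1 read 118 to 134 against 40.8 to 91.4 CPM. Dbp read 15.4 to 25.2 against 31.2 to 131 CPM. The labels do not say at what hour each tendon was taken. Of 25 early response and heat shock genes, Atf3 (36.8 to 47.9 against 15.1 to 33.5 CPM) and Myc (28.7 to 40.2 against 9.62 to 23.0 CPM) lay above, and Jund (6.39 to 7.66 against 8.24 to 79.3 CPM) and Ier3 below. Egr1, an early response gene induced by load, overlapped at 50.8 to 94.6 CPM in Flexor against 46.2 to 154 elsewhere.

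Of 24 glycolysis genes, edgeR called 18 higher, but 2 were members. Slc2a1, the glucose transporter of most cell types, read 101, 85.3, 61.5 and 92.5 CPM against 8.54 to 41.8, and Pfkp, the phosphofructokinase of platelets and fibroblasts, 219 to 302 against 66.1 to 135 CPM. Muscle enzymes such as Eno3 and Pgam2 were higher in Supraspinatus than in Flexor in every library, and the list without Patellar gave 6 higher and 1 lower. Of 26 genes of fatty acid oxidation, Cpt2 (36.2 to 40.7 against 41.1 to 121 CPM) and Decr1 (51.5 to 59.8 against 65.4 to 173 CPM) lay below, and 11 passed as lower and 2 as higher. Against Patellar alone 13 were higher and 3 lower (median 0.38), and without Patellar 18 were lower, 2 higher and 10 lay below the other 8 libraries. Macrophage genes gave no member, and 0 of 13 passed in either direction in edgeR. Of 7 red blood cell genes 0 were members, 5 passed as lower and 1 as higher.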
